A study of Cucumis sativus with 6 samples.

Results

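The comparison described here set the peel against the flesh of cucumber (Cucumis sativus) fruit of the inbred line YB at day 6 after self-pollination. Each tissue was represented by 1 library, made from a mix of 3 fruits, with no second library of either tissue at that day. Genes entered the comparison if they reached 1 FPKM, the fragment count divided by gene length and library size, in either of the 2 day 6 libraries, which kept 17416 of the 21317 genes of the table. The study, which searched for genes related to fruit astringency, also held 1 library of each tissue at day 3 and at day 9 from the same line. Recovered reads summed over genes came to 19067317 for the peel and 23740219 for the flesh library of day 6, and between 14899922 and 23599019 in the other 4 libraries. In bulk tissue, fewer cells of a type and less RNA per cell cannot be told apart.

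The peel of a young cucumber carries the epidermis, which secretes the cuticle, a layer of cutin and wax made from very-long-chain fatty acids, and bears spines and stomata. The flesh below it is built mainly of large water-filled parenchyma cells, and the dissected flesh of a young fruit can include placenta and ovules. Phenylalanine ammonia-lyase, cinnamate 4-hydroxylase and 4-coumarate-CoA ligase lead carbon from phenylalanine into lignin, flavonoids and tannins, the compounds for which astringent tissue is known.

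Differences are given as log2((peel FPKM + 1)/(flesh FPKM + 1)), so that 2 log2 units are a 4-fold difference on that scale and the change of genes with low FPKM is understated. At day 6, 880 genes (5.05% of those compared) exceeded flesh at least 4-fold in peel, and 366 (2.10%) exceeded peel at least 4-fold in flesh, together 1246 genes or 7.15%. The counts of each gene list below are to be read against these shares of 5.05% and 2.10%. The median over all genes compared was -0.03, and 76.4% of the genes lay within 2-fold. Peel-side genes were also the more numerous at larger differences, with 155 past 16-fold toward peel and 23 toward flesh, and 17 and 4 past 64-fold. The 880 genes took 10.1% of the summed FPKM of the peel library and 0.843% of that of the flesh library. The 366 genes took 7.41% of the summed FPKM of flesh and 1.21% of that of peel.

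With 1 library per tissue at day 6, the difference between the tissues on that day has no replicate check and was not tested, and the intervals given here cover counting error only, not the difference between fruits. They are exact 95% intervals of the FPKM ratio from the recovered reads of both libraries. The interval excluded a ratio of 1 for 862 of the 880 genes higher in peel and for 337 of the 366 higher in flesh. These genes were chosen from the same 2 libraries that gave the intervals, so these numbers are no check of the differences. Near the limit of 1 FPKM the counts were small: 2 genes without a product name just inside it, Csa4G015120 and Csa6G190280, had 1 and 3 reads and 1 and 2 reads in peel and flesh. Just outside it lay a putative strictosidine synthase (Csa3G174550) with 29 and 2 reads and the unnamed Csa7G039210 with 3 and 0 reads.

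**Figure D1:**
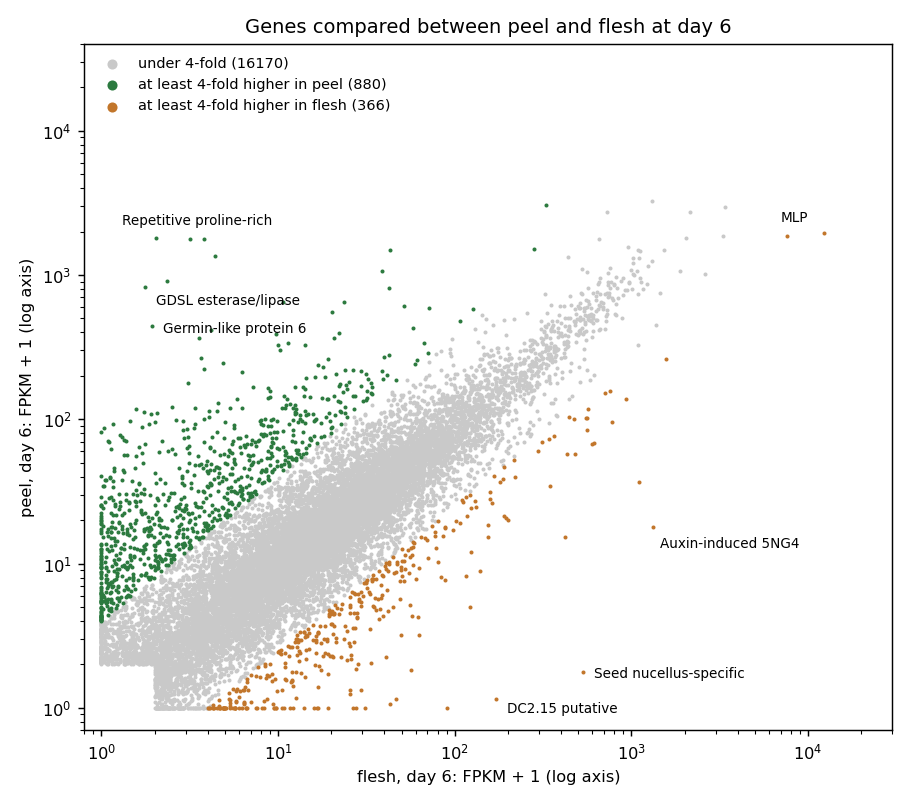
Each point is 1 of the 17416 genes, with its FPKM + 1 in flesh on the horizontal axis and in peel on the vertical axis at day 6, both on log axes. Green marks the 880 genes past 4-fold toward peel and orange the 366 past 4-fold toward flesh, and the largest distances from the grey band are on the peel side.

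Products named for the cell wall and for surface lipids were among the largest differences toward peel. The Repetitive proline-rich cell wall protein (Csa5G623650), of a family of structural wall proteins, had 1775 FPKM in peel and 2.19 in flesh, a ratio of 810 (interval 588 to 1151). Next to it on chromosome 5, the Annexin gene (Csa5G623640), of a family of calcium-dependent membrane-binding proteins, had 1344 and 3.42 FPKM, the second from 6 reads. A GDSL esterase/lipase (Csa1G665920), of a family that includes cutin synthases in tomato, had 827 FPKM in peel and 0.758 in flesh. In peel these 3 genes had between 16.3 and 43.6 FPKM at day 3 and between 2482 and 10050 at day 9, so day 6 held an intermediate level.

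The Cell wall glycine-rich protein (Csa7G037600) had 1766 FPKM in peel and 2.83 in flesh, and the unnamed gene beside it, Csa7G037590, had 1818 and 1.05, the largest difference of all genes compared (9.79 log2 units). A Pollen Ole e 1 allergen and extensin family gene (Csa1G165730), named after a wall glycoprotein of pollen, had 905 and 1.35 FPKM. Germin-like protein 6 (Csa1G596420), of a family of extracellular proteins, had 443 and 0.945 FPKM, a ratio of 469 (interval 315 to 733). The Cortical cell-delineating protein (Csa3G026660) followed the opposite course in peel, with 2133 FPKM at day 3, 362 at day 6 and 18.0 at day 9, against 2.58 in flesh at day 6. A Methyltransferase gene (Csa6G504380) had 415 and 3.15 FPKM and a ratio of 132 (interval 110 to 159).

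Of the most abundant named genes of the day 6 peel library, the Phloem filament protein (Csa7G067350) had 3241 FPKM in peel and 1304 in flesh, and a DC2.15 proline-rich protein (Csa2G381890) had 2975 and 3380. Ascorbate oxidase (Csa1G604040), a copper enzyme of the cell wall, had 2736 and 724 FPKM, a log2 difference of 1.92. The unnamed Csa3G822300, singled out after its values were seen, had 3046 and 329 FPKM. In flesh the most abundant gene was one named MLP (Csa3G172370), at 12298 FPKM against 1968 in peel, or -2.64 log2 units.

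Among the largest differences toward flesh were 2 genes named Seed nucellus-specific protein, the nucellus being the tissue of the ovule that surrounds the embryo sac. Csa3G630260 had 530 FPKM in flesh from 7900 reads and 0.761 in peel from 10 reads, a ratio of 696 (interval 379 to 1453). In flesh it had 94.7 FPKM at day 3 and 1.65 at day 9. Csa6G109680 had 89.1 FPKM in flesh from 414 reads and 0 reads in peel, which makes it at least 115-fold higher in flesh against a floor of 3 reads in the peel library. It had 1.23 FPKM in flesh at day 3 and 0.597 at day 9, so both genes were highest in flesh at day 6. Among products named for seed storage globulins and legumins, 6 were compared and all 6 were lower in peel than in flesh, but only a Legumin-like protein (Csa3G218170, 297 reads in peel and 123 FPKM from 4246 reads in flesh) passed 4-fold. Products named for oleosins, the proteins of seed oil bodies, had 42.9 FPKM in peel and 83.2 in flesh summed over 3 genes, and 0 of the 3 passed 4-fold. The seed and ovule list, which does not hold the nucellus genes, had a median of -0.15 over 27 genes, with 2 past 4-fold toward peel (7.41%) and 1 toward flesh (3.70%). Its summed FPKM were 1948 in peel and 1617 in flesh. The 2 on the peel side were Late embryogenesis abundant proteins, of a family tied to drying seeds and stress, Csa3G121560 at 246 and 3.90 FPKM and Csa4G001850 at 15.9 and 0.852. The part of ovule tissue in the differences between peel and flesh was not tested.

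MADS-box factors, many of which set the identity of flower organs, leaned to flesh. Of 23 such genes compared, 5 (21.7%) were at least 4-fold higher in flesh, against 2.10% of all genes, and 0 in peel. The Agamous MADS-box transcription factor (Csa1G467100), of the subfamily that specifies carpels in Arabidopsis, had 422 FPKM in flesh and 14.3 in peel, a ratio of 29.5 (interval 26.6 to 32.9). Transcription factor MADS-box 2 (Csa6G095270) had 42.0 FPKM in flesh and 1 read in peel, and MADS-box transcription factor 29 (Csa6G526550), whose namesake in rice acts in the degradation of maternal seed tissue, had 8.79 FPKM in flesh and 0 reads in peel. The MADS-box transcription factor Csa6G520410 had 37.4 FPKM in flesh and 4.76 in peel.

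The other large differences toward flesh came from varied families. A DC2.15 putative proline-rich protein (Csa3G027210) had 170 FPKM in flesh and 2 reads in peel. Its neighbour of the same name, Csa3G027200, was higher in peel, at 10.5 against 0.451 FPKM. The Auxin-induced protein 5NG4 (Csa2G251520) had 1327 and 17.0 FPKM in flesh and peel, a ratio of 78.1 (interval 57.9 to 108). A WAT1-related protein (Csa2G042770), of a family of membrane transporters that includes an auxin transporter in Arabidopsis, had 1097 and 35.5 FPKM. The UDP-glycosyltransferase Csa4G415930 had 45.7 FPKM in flesh from 2321 reads and 6 reads in peel. The Auxin-responsive protein Csa7G440550 had 121 and 3.98 FPKM, and the Cysteine-rich repeat secretory protein Csa7G044830 had 26.5 FPKM in flesh and 0 reads in peel, at least 151-fold higher. The unnamed genes with the largest differences toward flesh were Csa2G077550, with 90 and 0 reads in flesh and peel, and Csa4G373120, whose 18.2 FPKM in flesh rested on 4 reads.

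**Figure D2:**
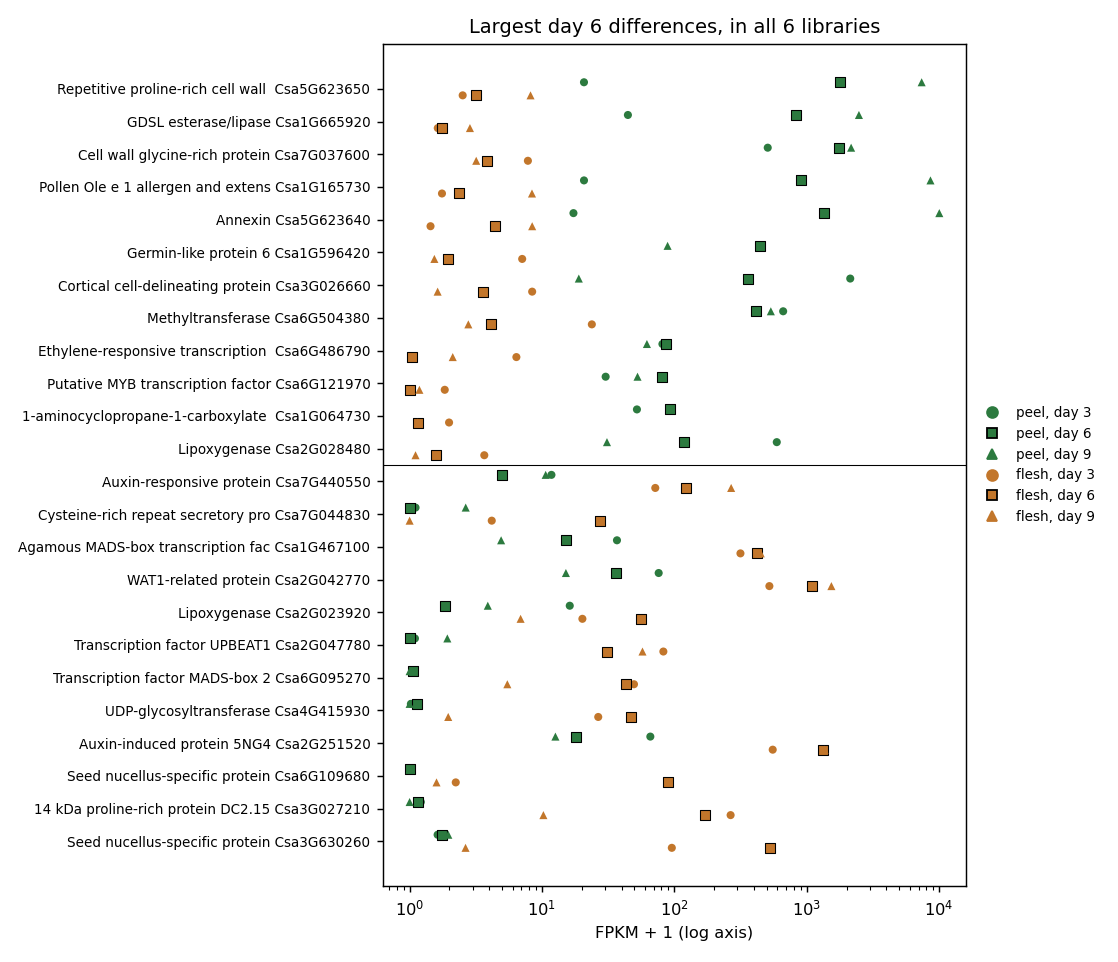
For the 12 named genes with the largest difference toward peel (upper part) and toward flesh (lower part) at day 6, FPKM + 1 in each of the 6 libraries is shown on a log axis, with peel in green, flesh in orange, day 3 as circles, day 6 as outlined squares and day 9 as triangles. In every row of the upper part the 3 peel libraries lie above the 3 flesh libraries, while the 2 Seed nucellus-specific genes are high in flesh at day 6 and near the bottom of the axis in flesh at day 9.

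The labels of the tissues were checked against epidermal genes, of which the ROC7 genes were picked with their values in view. Protodermal factor 1.1 (Csa6G423360), an epidermal cell wall protein, had 23.8 FPKM in peel and 1.64 in flesh. Homeobox-leucine zipper genes named ROC7, after a gene of the outermost cell layer in rice, numbered 6. Csa3G180430 had 26.1 FPKM in peel and 0.650 in flesh, Csa6G074030 had 19.1 and 2.16, and Csa7G044240 had 16.1 and 2.99. The ROC7 genes Csa1G660180, Csa3G187250 and Csa3G609280 were within 2-fold on the FPKM + 1 scale, at no more than 5.02 FPKM in either tissue. Protein YABBY Csa3G033810, from a family known for the abaxial side of leaves and carpels, had 108 and 0.921 FPKM in peel and flesh. The YABBY gene Csa6G426940 was abundant in both tissues, at 246 and 286 FPKM, and Csa2G348870 was higher in flesh, at 5.46 FPKM against 0.0975. The epidermis and outer side list had a median of 0.47 over 5 genes, with 2 past 4-fold toward peel and 1 toward flesh. Genes named for stomata and trichomes did not lean to peel, with 12 of 18 lower there and a median of -0.13. No list held a gene that defines flesh, so the flesh label was checked only by those epidermal genes that were lower there. Genes at a low level in both tissues do not check it. Protodermal factor 1.1 was near 2 FPKM in both tissues at day 9, at 1.91 in peel and 2.53 in flesh.

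Some enzymes of fatty acid elongation and wax synthesis had large differences toward peel. Of 24 genes in the fatty acid elongation list, 8 passed 4-fold toward peel, 33.3% against 5.05% of all genes, and 0 in flesh, with a median of 0.83 log2 units. The 3-ketoacyl-CoA synthases, which carry out the first step of each elongation cycle, gave 5 of these 8 among 11 genes compared. Csa3G144140 had 55.4 FPKM in peel and 0.404 in flesh, and Csa1G501850 had 33.2 FPKM in peel and 2 reads in flesh. A Long-chain-alcohol O-fatty-acyltransferase (Csa7G091730), of a family named for wax esters, had 25.1 and 0.429 FPKM.

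The wax and cutin list held 19 genes, of which 7 (36.8%) passed 4-fold toward peel and 1 (5.26%) in flesh. Fatty acyl-CoA reductases, which make the primary alcohols of wax, had a summed level of 72.9 FPKM in peel and 3.01 in flesh over 5 genes. Of these, 3 lay side by side on chromosome 1, between 9672067 and 9683629. Csa1G145840 had 27.9 FPKM in peel and 0 reads in flesh, Csa1G145850 had 24.6 FPKM and 0 reads, and Csa1G145860 had 13.3 FPKM against 2 reads. Genes named after CER1, an enzyme of alkane formation in Arabidopsis, went both ways: Csa6G079750 had 25.9 FPKM in peel and 3 reads in flesh, CER1-2 (Csa1G294020) had 31.4 and 5.14 FPKM, and Csa3G127760 had 0.998 FPKM in peel and 27.3 in flesh.

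Proteins that may carry or join surface lipids followed. Of 41 GDSL esterases and lipases, 12 (29.3%) passed 4-fold toward peel and 3 (7.32%) in flesh. After Csa1G665920 the highest in peel were Csa1G050100 (96.0 and 1.90 FPKM), Csa3G669600 (92.4 and 10.5 FPKM) and Csa3G075990 (86.5 and 2.33 FPKM). Of 19 lipid transfer proteins, small proteins that bind lipids outside the cell, 6 (31.6%) passed 4-fold toward peel and 1 (5.26%) in flesh. The Non-specific lipid-transfer protein Csa3G728130 had 1060 FPKM in peel and 37.6 in flesh, and the putative lipid transfer protein Csa4G141240 had 112 FPKM in peel and 4 reads in flesh. ABC transporters, some of which export wax in Arabidopsis, counted 7 of 63 (11.1%) at least 4-fold higher in peel and 0 in flesh. They were led by the G family member Csa3G446120 at 121 and 1.53 FPKM.

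The entry into phenolic metabolism had the highest median of the lists, 2.05 log2 units over 32 genes, with 16 at least 4-fold higher in peel and 0 in flesh. That is 50% against 5.05% of all genes. Phenylalanine ammonia-lyase counted 10 of 15 genes, cinnamate 4-hydroxylase 4 of 5 and 4-coumarate-CoA ligase 2 of 12. The remaining cinnamate 4-hydroxylase leaned to flesh, at -0.75 log2 units. Over the 5 hydroxylases, summed FPKM were 78.1 in peel and 34.1 in flesh. Summed FPKM of the ammonia-lyases were 509 in peel and 52.9 in flesh. In peel this sum lay between those of day 3 (341) and day 9 (1225), while in flesh it was below those of both day 3 (292) and day 9 (112). The ammonia-lyase Csa4G008250 had 137 FPKM in the day 6 peel and 4.84 in the day 6 flesh, with 79.2 and 18.8 in the flesh of days 3 and 9.

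Neighbouring genes shared this difference. In the order of genes along the chromosomes, the longest runs of adjacent genes that were all at least 4-fold higher in peel were 2 runs of 5 phenylalanine ammonia-lyases, on chromosome 4 between 1356382 and 1371474 and on chromosome 6 between 20840773 and 20855835. Next came a run of 4 cinnamate 4-hydroxylases on chromosome 2 between 5328496 and 5341747. These runs held all 10 ammonia-lyases and all 4 hydroxylases that passed 4-fold toward peel. Of the 16 genes of the entry list past 4-fold, all but the 2 ligases thus lay in these runs. Runs of 3 genes numbered 8, all higher in peel, among them receptor-like kinases on chromosome 1 between 6916481 and 6931195 (Csa1G065420, Csa1G065920 and Csa1G065930) and the acyl-CoA reductases above. Among genes higher in flesh the longest runs held 2 genes, and there were 19 of them. Reads of near-identical neighbours may be assigned to either copy, so members of these runs are not independent counts. The share of genes higher in peel was close to even over the 7 chromosomes, between 4.88% and 5.56%.

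**Figure D3:**
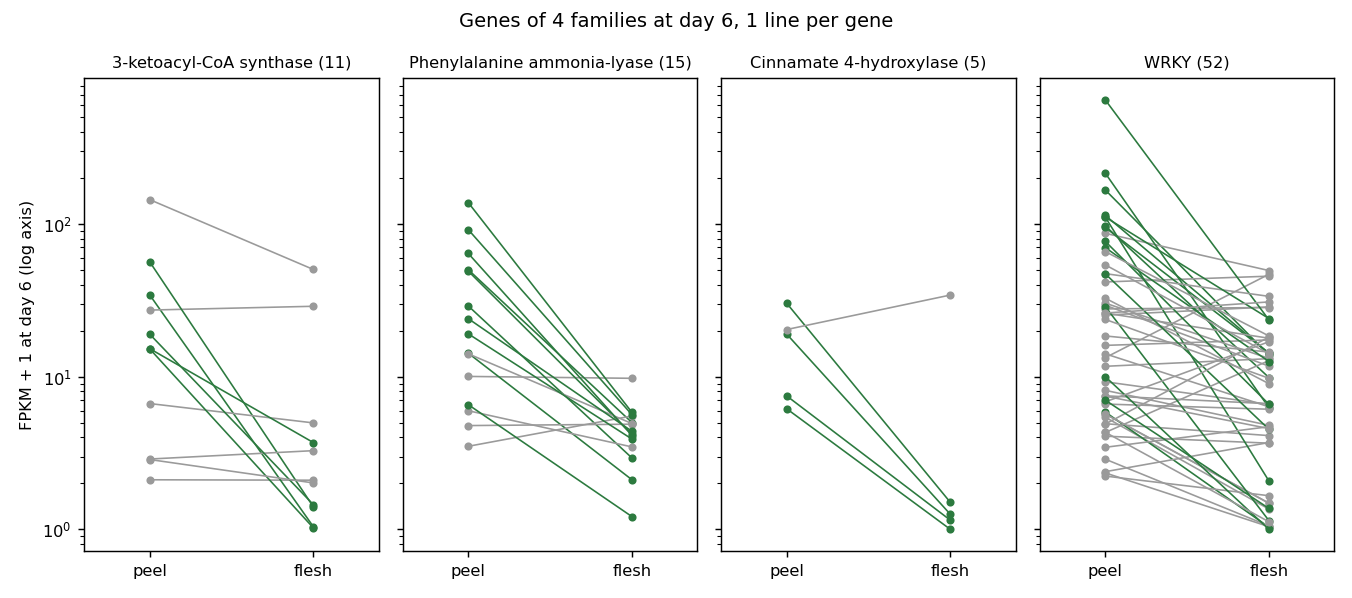
Each line joins the FPKM + 1 (log axis) of 1 gene between the peel and the flesh library of day 6, for 11 3-ketoacyl-CoA synthases, 15 phenylalanine ammonia-lyases, 5 cinnamate 4-hydroxylases and 52 WRKY genes, with those past 4-fold toward peel in green and the others in grey. In each family several lines fall steeply from peel to flesh, and none is at least 4-fold higher in flesh.

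Further steps of phenolic metabolism followed. Of 18 flavonoid enzymes, 3 (16.7%) passed 4-fold toward peel with 0 the other way. These were Flavanone 3-hydroxylase (Csa3G002800) at 10.7 and 1.39 FPKM, Flavonol synthase (Csa6G040540) at 5.83 and 0.244, and the flavonoid 3',5'-hydroxylase Csa1G013190 at 4.96 FPKM and 0 reads in flesh. Of 54 lignin and monolignol genes, 6 (11.1%) passed 4-fold toward peel and 3 (5.56%) toward flesh, against 5.05% and 2.10% of all genes. Cinnamoyl-CoA reductases, the first enzymes of the lignin branch, included Csa5G524780 (52.0 and 4.61 FPKM), Csa3G715370 (37.0 and 0.303) and Csa3G716370 (35.0 and 2.22) on the peel side. Laccase-2 (Csa3G175700), of the enzymes that couple monolignols, was on the flesh side at 1.84 and 20.3 FPKM. In the shikimate list, 3 of 30 genes (10%) passed 4-fold toward peel and 1 (3.33%) in flesh. Among them were the entry enzyme Phospho-2-dehydro-3-deoxyheptonate aldolase 1 (Csa6G499800) at 218 and 25.7 FPKM and a putative Prephenate dehydratase (Csa1G145980), a late step toward phenylalanine, at 51.6 and 7.01. Polyphenol oxidases and peroxidases had a median of -0.26 over 34 genes, with 7 (20.6%) at least 4-fold higher in peel and 3 (8.82%) in flesh. Examples were Peroxidase Csa4G285780 (91.8 and 2.38 FPKM) on the peel side and Peroxidase Csa3G829270 (19.2 and 198) on the flesh side.

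Genes of jasmonate synthesis and response stood on both sides. In the list of 34, 11 (32.4%) passed 4-fold toward peel and 3 (8.82%) in flesh, with a median of 0.96. Lipoxygenases oxidise fatty acids at the start of jasmonate and aroma synthesis. Lipoxygenase Csa2G023940 had 1497 FPKM in peel and 41.8 in flesh, Csa7G449420 had 327 and 9.03, and Csa2G028480 had 117 FPKM in peel and 7 reads in flesh. Beside Csa2G023940 on chromosome 2, the lipoxygenase models Csa2G023910 and Csa2G023920 were higher in flesh, at 431 against 56.8 FPKM and 55.2 against 0.836, but these values rested on 106 and 14 reads and on 133 and 2 reads. Allene oxide cyclase 2 (Csa5G366670), a later step, had 239 and 15.8 FPKM. Of 8 Jasmonate ZIM genes, repressors of the jasmonate response, 4 passed 4-fold toward peel, with Jasmonate ZIM domain protein f (Csa1G435790) at 167 and 11.5 FPKM.

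Among other defence products, 15 of 109 genes of the pathogenesis and latex list (13.8%) passed 4-fold toward peel and 4 (3.67%) in flesh. The median was -0.29, and 64 of the 109 were lower in peel. The list does not hold the abundant flesh gene MLP (Csa3G172370), at 12298 FPKM in flesh and 1968 in peel. Csa5G602750, a Major latex-like protein, stood at 651 FPKM in peel against 9.70 in flesh. The Proteinase inhibitor Csa3G142400 had 592 and 70.2 FPKM, and Cysteine proteinase inhibitor 4 (Csa1G123470) had 336 and 65.7.

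WRKY genes and ethylene-responsive factors are transcription factor families known for stress and defence responses. WRKY genes had a median of 1.19 over 52 genes, with 15 at least 4-fold higher in peel and 0 in flesh, 28.8% against 5.05% of all genes. WRKY transcription factor 4 (Csa3G710870) had 645 FPKM in peel and 22.5 in flesh, and WRKY transcription factor 21 (Csa4G051470) had 110 and 1.07. Ethylene-responsive factors had a median of 0.96 over 85 genes, with 21 (24.7%) at least 4-fold higher in peel and 1 (1.18%) in flesh. Csa6G486790 had 85.5 FPKM in peel and 1 read in flesh, Ethylene-responsive transcription factor 3 (Csa1G340430) had 69.3 FPKM and 2 reads, and Ethylene-responsive transcription factor 13 (Csa5G150420) had 60.8 FPKM and 5 reads. The single factor of this list at least 4-fold higher in flesh was Ethylene-responsive transcription factor 7 (Csa2G382550), at 2.21 and 48.8 FPKM.

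Of 52 NAC genes, 10 (19.2%) passed 4-fold toward peel and 0 in flesh, with the NAC-domain protein Csa6G425720 at 55.4 and 0.351 FPKM. Of 21 basic helix-loop-helix genes, 5 (23.8%) passed 4-fold toward peel and 2 (9.52%) in flesh. Among them, bHLH25 (Csa6G497110) had 76.5 FPKM in peel against 8 reads in flesh. A putative MYB transcription factor (Csa6G121970) had 80.3 FPKM in peel from 1955 reads and 0 reads in flesh. Against a floor of 3 reads it was at least 785-fold higher in peel. In its list of 99 genes, 13 (13.1%) passed 4-fold toward peel and 3 (3.03%) in flesh. Homeobox genes were split, 10 higher in peel (12.2%) and 9 in flesh (11%) of 82, against 5.05% and 2.10% of all genes. Factors on the flesh side included UPBEAT1 (Csa2G047780), which controls peroxidase genes in Arabidopsis roots, at 30.1 FPKM and 0 reads in peel, the SUPERMAN-like zinc finger factor Csa3G733980 at 28.4 FPKM and 7 reads in peel, and a BZIP transcription factor (Csa6G504520) at 26.7 and 0.862 FPKM.

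Hormone genes differed by class. Ethylene synthesis included 2 ACC synthases, the rate-limiting enzymes, that were higher in peel, Csa4G049610 at 70.2 and 1.19 FPKM and Csa6G006800 at 33.4 FPKM and 1 read. ACC oxidase 4 (Csa1G064730), the last step, had 92.4 FPKM in peel and 7 reads in flesh. Products named ACC oxidase or oxidase-like, a name given to a wider enzyme family, were 3 higher in peel and 3 in flesh of 32. In the whole ethylene synthesis list, 5 of 36 genes (13.9%) passed 4-fold toward peel and 3 (8.33%) toward flesh. The auxin list leaned to flesh, with 17 of 161 genes (10.6%) at least 4-fold higher there, against 2.10% of all genes. Toward peel the count was 11 (6.83%), near the 5.05% of all genes, and the median was -0.37. The Dormancy/auxin associated protein Csa2G031190 had 558 FPKM in flesh and 83.6 in peel. Gibberellin genes counted 4 higher in peel (11.8%) and 5 in flesh (14.7%) of 34, against 5.05% and 2.10% of all genes. Gibberellin 2-oxidase (Csa4G075200), which inactivates the hormone, had 64.4 FPKM in peel and 2.12 in flesh, and the GID1 receptor gene Csa7G375730 had 35.2 and 1.04. On the flesh side, ent-kaurenoic acid oxidase (Csa3G012860), a step of gibberellin synthesis, had 9.59 FPKM and 0 reads in peel. Of 18 cytokinin genes, 2 response regulators (11.1%) were higher in peel, Csa3G904140 (114 and 21.3 FPKM) and Csa2G408430 (4.46 FPKM and 0 reads in flesh), and 1 (5.56%) in flesh, Csa3G016400 (5.12 and 27.4).

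Water transport genes leaned to flesh. Aquaporins, the water channels of the plasma membrane and vacuole, had the lowest median of the lists, -0.71 over 26 genes. At least 4-fold higher in flesh were 6 (23.1%) and in peel 1 (3.85%), against 2.10% and 5.05% of all genes. Summed over the 26 genes, FPKM were 8907 in flesh and 2613 in peel. Aquaporin protein 7 (Csa5G153020) had 1564 FPKM in flesh and 260 in peel, Csa3G743400 had 928 and 137, and Csa5G162580 had 597 and 66.2. Aquaporin 2 (Csa6G445150) was the exception, at 4.66 FPKM in flesh and 49.4 in peel. In sugar metabolism, the beta-fructofuranosidases Csa5G174590 (157 FPKM in flesh and 27.0 in peel) and Csa3G777580 (153 and 17.6), invertases that split sucrose, were higher in flesh, whereas a Sugar transporter (Csa1G071870) was higher in peel, at 156 against 7.95 FPKM.

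Cell wall genes were again divided. Of 43 expansins and xyloglucan enzymes, which loosen the growing wall, 10 (23.3%) passed 4-fold toward peel and 1 (2.33%) in flesh. Summed FPKM of this list were nearly equal, at 2369 in peel and 2397 in flesh. Expansin 3 (Csa5G605760) had 366 FPKM in peel and 19.7 in flesh, while the Expansin Csa6G014540 had 56.6 and 477. The list also holds a Xyloglucan-specific endoglucanase inhibitor protein (Csa3G150000), which acts on foreign enzymes, at 128 and 3.60 FPKM. Pectin enzymes and their inhibitors counted 7 higher in peel (9.33%) and 4 in flesh (5.33%) of 75, against 5.05% and 2.10% of all genes. They included a Pectinesterase (Csa3G000060) at 141 and 14.2 FPKM and a Polygalacturonase-inhibitor protein (Csa4G154320) at 67.9 and 613. The cellulose synthase list had 2 of 32 higher in peel, 6.25% and so near the 5.05% of all genes, both cellulose synthase-like genes, Csa2G416240 at 71.0 and 6.12 FPKM and Csa2G353490 at 43.7 and 9.61.

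Other cell types and general cell functions were compared with the same bound. Photosynthesis genes had a median of -0.07 over 52. On the flesh side lay 3 chlorophyll a-b binding genes (5.77%), such as Csa6G139750 at 566 FPKM in flesh and 118 in peel. On the peel side lay 1 gene (1.92%), a ribulose bisphosphate carboxylase small chain (Csa5G609710), at 577 FPKM in peel and 125 in flesh. In chlorophyll biosynthesis 1 of 11 (9.09%) passed, a Glutamyl-tRNA reductase (Csa7G068600) at 31.1 FPKM in peel and 2.77 in flesh, which shares its deposited locus with another gene. Carotenoid genes had a median of -0.39 over 18, with 2 (11.1%) higher in flesh and 0 in peel. These were Phytoene synthase (Csa4G280510), the first committed step, at 9.53 and 0.324 FPKM, and Lycopene beta-cyclase (Csa4G001730) at 7.90 and 0.662. The vascular and phloem list had summed FPKM of 11445 in peel and 6872 in flesh and a median of -0.12, which was 0.05 over the members with at least 5 FPKM. Of its 56 genes, 4 (7.14%) passed 4-fold toward peel and 2 (3.57%) toward flesh, near the 5.05% and 2.10% of all genes. The 4 were 2 G-type lectin receptor kinases and 2 F-box genes named PP2-B3, such as Csa2G032230 at 44.9 and 2.74 FPKM. They entered the list by product name. The flesh side included Phloem lectin (Csa4G501830) at 36.8 FPKM in flesh and 3.86 in peel. An EPIDERMAL PATTERNING FACTOR-like gene (Csa3G146310), of a family that sets stomatal spacing, was the 1 of 18 stomata and trichome genes past 4-fold, at 8.80 and 1.33 FPKM, and this share of 5.56% was near that of all genes. In that list 12 of the 18 genes were lower in peel, with a median of -0.13. Its summed FPKM were 312 in peel and 419 in flesh.

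Ribosomal proteins had 0 of 147 genes past 4-fold either way, with a range of -1.17 to 1.39 log2 units. The cell cycle and histone list had 5 of 193 higher in peel (2.59%) and 1 in flesh (0.518%), below the 5.05% and 2.10% of all genes. Cyclin d3.1 (Csa2G356070) and Cyclin D3-1 (Csa3G199660), which drive entry into division, had 63.0 and 9.72 FPKM and 86.4 and 19.0 FPKM. Of 23 genes with a cyclin D name, only these 2 passed 4-fold, and the median was -0.06. Heat shock genes had a median of -0.01 over 192, which turned to 0.03 with the FPKM rescaled by median ratios and 0.04 on recovered reads scaled by library total, with 11 higher in peel (5.73%) and 4 in flesh (2.08%), shares near those of all genes. The 11 included the Heat stress transcription factors Csa6G490870 (66.3 and 0.760 FPKM) and B-2b (Csa3G181940, 206 and 30.6 FPKM). Cytochrome P450 genes counted 22 higher in peel (19.8%) and 7 in flesh (6.31%) of 111. Glycosyltransferases counted 6 (7.59%) and 1 (1.27%) of 79, near the shares of all genes, and triterpene genes 0 either way of 5.

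**Figure D4:**
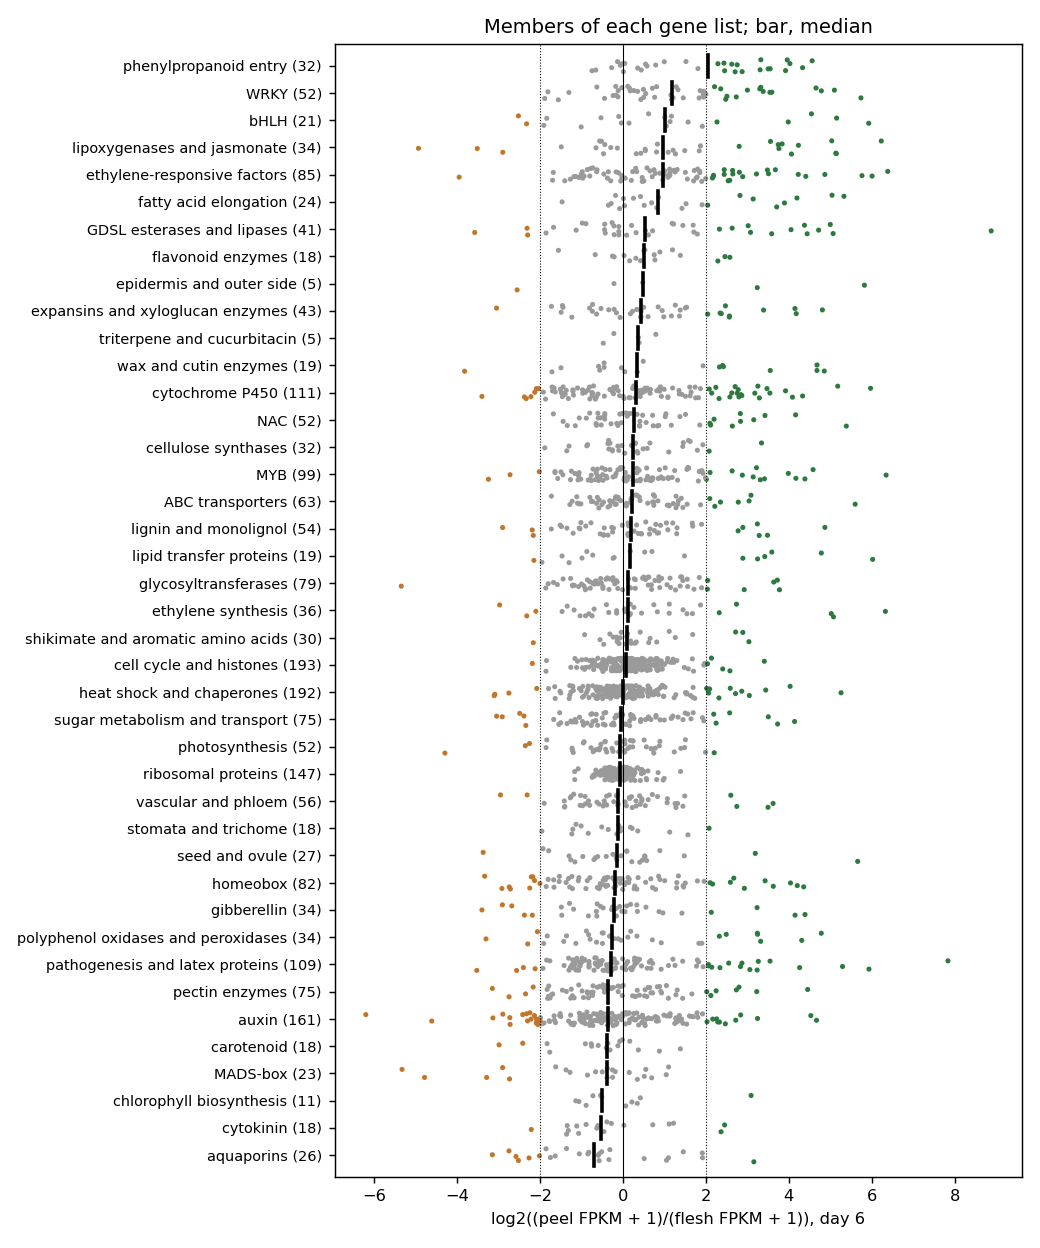
Each point is the log2 difference of 1 gene at day 6 and each row 1 list, with the number of genes compared in brackets, the median as a black bar, and points at least 4-fold higher in peel in green and in flesh in orange. The rows run from the phenylpropanoid entry list at the top, with a median of 2.05, to the aquaporins at the bottom, with -0.71, and most medians lie within 1 unit of 0.

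The libraries of the other days are separate samples, so the day 6 difference was set beside theirs. Of the 880 genes past 4-fold toward peel, 94.5% had a positive difference at day 3 and 88.2% at day 9, and of the 366 higher in flesh, 91.3% and 82.5% had a negative one. Over all genes compared the sign was shared for 73.6% at day 3 and 70.2% at day 9. A 4-fold difference in the same direction on all 3 days was seen for 218 of the 880 and 41 of the 366. A 4-fold difference in that direction at day 6 and at neither other day was seen for 295 and 158. These counts can include genes 4-fold different in the opposite direction at another day. Of the 880, such genes numbered 3 at day 3 and 6 at day 9, and of the 366, 0 and 6. At the same bound, the genes compared here included 439 on the peel side (2.52%) and 135 on the flesh side (0.775%) of day 3, and 1116 (6.41%) and 669 (3.84%) for day 9.

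**Figure D5:**
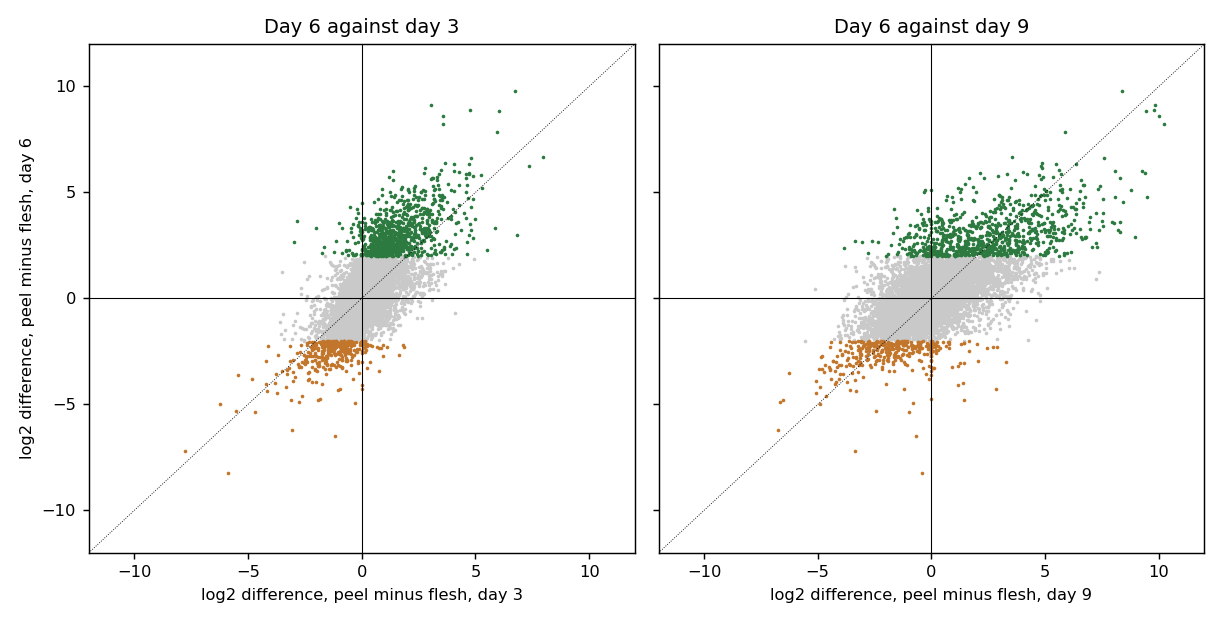
The log2 difference of each gene at day 6 (vertical) is plotted against its difference at day 3 (left) and day 9 (right), in green for the 880 genes past 4-fold toward peel and in orange for the 366 higher in flesh, with the line of equal values dotted. Most green points lie right of 0 on both panels, with a wider spread at day 9, and most orange points lie left of 0.

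The day 6 libraries were then set against the other days of their own tissue. Of the 880, 233 (26.5%) were at least 2-fold lower in flesh at day 6 than in flesh at both day 3 and day 9, against 2.26% of all genes compared, and 29 (3.30%) exceeded both other peel libraries at least 2-fold in the day 6 peel, against 0.706%. Both shares are raised by the choice of these genes, since the day 6 values enter it. Lists formed from product names were also compared, and those with the largest shares of such a low point in flesh are given here. They were 8 of 34 jasmonate genes (23.5%), 7 of 32 phenylpropanoid entry genes (21.9%) and 17 of 85 ethylene-responsive factors (20%). Next came 8 of 43 expansins and xyloglucan enzymes (18.6%), 8 of 52 WRKY (15.4%) and 12 of 99 MYB genes (12.1%). Being picked for these shares, they are no separate check. The low point was seen in 0 of 147 ribosomal protein and 0 of 52 photosynthesis genes, and also in 0 of 19 wax and cutin, 0 of 19 lipid transfer, 0 of 41 GDSL and 0 of 18 flavonoid genes. The summed FPKM of the WRKY genes in flesh were 1280, 594 and 1736 at days 3, 6 and 9, and in peel 2265, 2434 and 3603. Of the 366 genes higher in flesh, 57 (15.6%) were at least 2-fold higher in flesh at day 6 than at both other days, against 0.959% of all genes, a share raised by the choice of genes in the same way.

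Past 4-fold at day 6 and within 0.5 log2 units at both other days lay 19 genes on the peel side and 15 on the flesh side. WRKY transcription factor 17 (Csa3G730800) had 74.0, 95.8 and 85.3 FPKM in peel at days 3, 6 and 9 and 66.7, 8.85 and 64.4 in flesh. A gene named Xenotropic and polytropic retrovirus receptor-like (Csa5G471600), a name shared with phosphate exporters of plants, had 104, 13.3 and 128 FPKM in flesh and between 140 and 192 in peel. The 26S protease regulatory subunit 4 (Csa6G504440) had 33.9, 3.31 and 54.3 FPKM in flesh, and Zinc-finger protein 1 (Csa2G354820) had 93.9, 15.1 and 116. In these 4 genes the flesh library of day 6 was the low one and the 3 peel libraries differed by less than 2-fold. A putative Ethylene-responsive transcription factor (Csa6G518040) had 99.5, 25.6 and 296 FPKM in flesh and 135, 143 and 228 in peel. The Potassium channel gene Csa1G303700 did not share that course, with peel at 6.04, 17.3 and 44.2 FPKM and flesh at 4.85, 2.86 and 37.4. The Generic methyltransferase Csa3G123730 was the only named gene of this pattern toward flesh with at least 10 FPKM, at 6.45, 14.0 and 9.87 FPKM in flesh and 6.03, 2.30 and 9.87 in peel.

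Whether the tissue difference at day 6 departed from that at days 3 and 9 was tested for each gene in a limma model of all 6 libraries with tissue, day and a term for peel at day 6, which left 1 residual degree of freedom. Of 17265 genes tested, limma called 0 at an adjusted p under 0.05 (0.00%), with 286 at an unadjusted p under 0.05, and edgeR on the recovered reads also called 0 of 18276, with 289 unadjusted. The 1 residual degree of freedom was the change of the tissue difference between days 3 and 9, not the spread between fruits. With it alone, a p that misses the threshold does not show that the differences were alike on the 3 days.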

How the data were processed

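Each of the 6 libraries (peel and flesh at days 3, 6 and 9) held RNA of 3 mixed fruits, per the labels' protocols. Per the submitters' processing notes, TopHat and Cufflinks 2.1.1 were used; build, annotation and strand setting are not given in the sources consulted. The table gives FPKM values made by the authors, per the file headers. Its count columns were deposited as a signal, reads multiplied by 1 factor per library; dividing by the step of the low values gave whole reads (within 0.05) for 99.7% to 99.9% of values. These reads were used for counting intervals (95%, exact) and floors (3 reads), which cover counting error only, since reads without molecular identifiers are not independent molecules.

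Differences used log2(FPKM + 1) and genes with at least 1 FPKM in either day 6 library. Each tissue and day has 1 library, so limma 3.58.1 tested only whether the day 6 difference departed from days 3 and 9 (Benjamini-Hochberg adjustment); edgeR 4.0.16 (quasi-likelihood) repeated this on recovered reads, an alternative chosen after seeing the data. Both were also run on simulated data, whose outcome is not given here. Intervals, counts and figures used Python 3.11.15, scipy 1.17.1 and matplotlib 3.10.9.

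Gene lists were matches to product names. Genes were named by rank of difference or abundance, among transcription factors, within lists and in runs of neighbours; the single ROC7, YABBY, jasmonate ZIM, DC2.15 and Aquaporin 2 genes outside that rule, and Csa3G822300, were picked with their values in view. The genes, lists and tests were chosen with earlier results of these data known. Near-identical and neighbouring copies may share reads, and 1023 genes of the table share a locus with another. The RefSeq table matched 0 of the gene identifiers, so no sequence is printed. Alternatives covered the pseudocount, the filter, the scaling and shared loci.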

Additional observations from a re-analysis of the deposited data

Results flagged for a closer look

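For 10 of the named genes past 4-fold at day 6, peel and flesh were ordered the other way by more than 2-fold at another day. With 1 library per tissue and day, the difference between days was not tested for these pairs of days.

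Of the genes higher in peel at day 6, 6 were lower in peel on another day. A xyloglucan endotransglucosylase/hydrolase (Csa1G422990), a wall-loosening enzyme, had 189 FPKM in peel against 31.2 in flesh at day 6, but 117 against 322 at day 9, a log2 difference of -1.45. The Proteinase inhibitor Csa3G142400 had 169 and 349 FPKM at day 9, or -1.04. Ethylene responsive transcription factor 2b (Csa3G207390) had 105 FPKM against 13.4 at day 6, but 107 against 236 at day 9, or -1.13. The response regulator Csa3G904140 stood at -1.30 at day 9, with 19.1 and 48.5 FPKM. A putative NAC domain gene (Csa6G127320) stood at -1.09, with 37.6 and 81.2 FPKM at day 9. A putative Sugar transporter (Csa2G245410) was lower in peel at day 3, at 26.5 and 63.2 FPKM or -1.22, and higher at day 6, at 48.0 and 9.78.

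Of the genes higher in flesh at day 6, 4 were higher in peel at day 9. The hydroxycinnamoyl transferase Csa2G011500, a step toward lignin, had 1.66 and 10.9 FPKM in peel and flesh at day 6 and 6.14 and 1.91 at day 9, or 1.30. A putative auxin/aluminum-responsive gene (Csa6G517220) had 103 FPKM against 441 at day 6, but 867 against 318 at day 9, or 1.44. The Cysteine-rich repeat secretory protein Csa7G044830 stood at 1.41 at day 9, with 1.65 FPKM in peel and 0 in flesh. The unnamed Csa4G373120 stood at 2.83 at day 9, with 6.09 and 0 FPKM, and rested on 4 reads in flesh at day 6.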

How the results depend on the processing

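With a pseudocount of 0.1 FPKM the genes past 4-fold numbered 2051 (1348 toward peel, 703 toward flesh), and 89.4% and 83% of them kept their sign at days 3 and 9; with a pseudocount of 5 they numbered 546 (430 and 116), with 96.3% and 89.2%. As reported, these were 1246 (880 and 366), 93.6% and 86.5%. On recovered reads scaled by library total, an alternative added after seeing the data, the shares were 95.3% and 89.2%. The share of 4-fold genes on the peel side lay between 65.7% and 78.8% over the settings. Of the list medians, 3 turned sign, all close to 0: heat shock (0.03 with median-ratio rescaling, 0.04 on recovered reads), sugar metabolism (0.01 with no filter) and vascular (0.05 with at least 5 FPKM). The cause was not tested. No named gene reversed under the 5 alternatives run for single genes, and 234 of 1000 such values moved by 0.5 log2 units or more. The limma test of day 6 against the other days called 0 genes under each alternative, with 247 to 413 at an unadjusted p under 0.05. No paired analysis was possible because each group of 1 tissue and 1 day has 1 library, so that groups share fewer than 2 replicate numbers; the limma model holds day as a term, which sets peel beside flesh of the same day. No library was left out, since each is the whole of its group. Depth limits genes with few reads, whose intervals are wide.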
